A study of Mus musculus with 8 samples.

Results

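Expression of 8 genes that encode surface or secreted markers of endothelial tip cells was examined in mouse retina. The genes were Esm1, Cxcr4, Cxcl12, Unc5b, Pdgfb, Plaur, Cd34 and Mcam. They were represented by every Affymetrix probe set whose platform annotation gave exactly 1 gene symbol and whose symbol was among the 8, which were 12 probe sets of 34945 with 1 symbol and 8 genes of 18193. Of the 8 genes, 5 had 1 probe set and 3 (Cxcl12, Unc5b and Pdgfb) had more. The retinas came from pups at postnatal day 8 (P8) of a mixed background, mainly C57BL/6 and 129. Dams with the Z/Edn2 transgene, from which Cre allows expression of endothelin 2, were mated to sires carrying Six3-Cre on both alleles, so that Control pups (Six3-Cre) and Z/Edn2 pups (Z/Edn2; Six3-Cre) shared the Cre driver. Six3-Cre acts in progenitors of the neural retina, so expression of endothelin 2 from the transgene was directed to neural cells and not to vessels. Carriers were recognised by LacZ activity in a tail clip, and each array held RNA pooled from the retinas of 2 to 3 pups, with 4 arrays in each group. The question, as the series title states it, was how endothelin 2 from the neural retina acts on the tip cell state and on angiogenesis.

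Retinal vessels grow as sprouts. A tip cell at the front of each sprout extends filopodia and follows guidance cues, while the stalk cells behind it divide and form the lumen. Vascular endothelial growth factor promotes the tip state, and Notch signalling from tip to stalk restrains it. Tip cells secrete the proteoglycan Esm1 and the pericyte-recruiting ligand Pdgfb. They carry on their surface the chemokine receptor Cxcr4, whose ligand is Cxcl12, the netrin receptor Unc5b, the urokinase receptor Plaur, and the glycoproteins Cd34 and Mcam. None of these genes is exclusive to tip cells in whole retina, since pericytes also carry Mcam and immune cells carry Cxcr4 and Plaur.

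RefSeq promoters (GRCm38.p6) were at hand for 7 of the 8 genes. The 250 bases before the start are shown for Esm1, Cxcr4 and Unc5b, the genes with a probe set whose Control and Z/Edn2 values did not overlap. Each runs 5′ to 3′ on the gene's strand, and the capitals mark the core of the hypoxia response element, ACGTG or GCGTG, searched on both strands.
Esm1, chr13:113209409-113209658, plus strand: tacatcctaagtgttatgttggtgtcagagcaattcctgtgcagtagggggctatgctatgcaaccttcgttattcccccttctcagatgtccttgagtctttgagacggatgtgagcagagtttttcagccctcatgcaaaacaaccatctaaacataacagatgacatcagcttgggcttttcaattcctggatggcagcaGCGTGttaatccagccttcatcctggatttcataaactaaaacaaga
Cxcr4, chr1:128592300-128592549, minus strand: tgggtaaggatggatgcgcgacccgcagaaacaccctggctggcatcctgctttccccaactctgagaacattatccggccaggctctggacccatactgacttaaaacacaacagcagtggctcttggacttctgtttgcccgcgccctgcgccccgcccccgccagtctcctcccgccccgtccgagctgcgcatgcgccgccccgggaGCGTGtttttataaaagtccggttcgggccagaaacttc
Unc5b, chr10:60831582-60831831, minus strand: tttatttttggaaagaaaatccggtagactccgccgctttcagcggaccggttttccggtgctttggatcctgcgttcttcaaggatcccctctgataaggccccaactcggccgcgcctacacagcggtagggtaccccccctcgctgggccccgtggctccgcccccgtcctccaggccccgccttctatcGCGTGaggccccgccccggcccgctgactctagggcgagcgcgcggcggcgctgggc
The core GCGTG stood once in each of these 3 promoters, 47 to 43 bases before the start in Esm1, 39 to 35 in Cxcr4 and 57 to 53 in Unc5b. It was not found in those of Cxcl12, Plaur, Cd34 and Mcam. Of 32851 promoters of this length in the same table, 38.6% held ACGTG or GCGTG, so 3 of 7 is a description and no enrichment was tested. Of the 5 other motifs searched on both strands, the Notch motif TGGGAA (21.6% of all promoters) was found in Cxcl12, and the ETS motifs CCGGAA (3952 of the 32851) in Unc5b and GGAAG (64.1%) in Cxcl12, Plaur and Cd34. TATAAA (12.4%) was found in Cxcr4, and the GC box GGGCGG (32.7%) in Cxcr4, Cxcl12, Unc5b, Plaur and Mcam. None of these overlapped a marked core. In Cxcl12 a GGAAG overlapped the TGGGAA and another shared a base with a GC box, and the TATAAA of Cxcr4 was found on both strands in overlapping positions. The motifs were chosen after values were seen.

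Values are log2 signal as the authors normalised it. Medians over the probe sets with 1 symbol lay between 6.48 and 6.60, with the highest in Z/Edn2 3, which also had the lowest bioD spike-in (5′ probe set), 9.30 against 11.3 to 11.6 elsewhere. Control 1 and Z/Edn2 1 had a smaller actin signal difference between the 3′ and 5′ ends (0.65 and 0.56, log2) than the other arrays (1.06 to 1.42). Retinal neuron markers had mean levels of 11.6 to 11.9 in all 8 arrays, and genes of tissues other than the eye 4.32 to 4.57. Edn2 itself lay at 3.87 to 4.12 in Control and 4.00 to 4.28 in Z/Edn2, and whether its probe set lies in the transgene was not stated. The pools were the replicates, so the limma p-values set the difference between groups against the spread among pools within a group.

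Esm1 rose in Z/Edn2 retina. Its signal ratio was 2.63 (95% interval 1.93 to 3.59, n = 4 per group), measured from dim Control signal, where array signals can understate a fold. It was the only gene of the 8 to pass the test, which was limma over all 34945 probe sets with Benjamini-Hochberg adjustment and a threshold of 0.05. Its adjusted p by limma, 0.0463, was close to that threshold. The call was lost in 13 of 21 alternative fits, many of them with fewer arrays. The other 7 genes did not pass. Mcam and Cxcr4 had the next largest log2 fold changes, 0.57 and 0.48, and Cd34 was at 0.013. Over all probe sets 31 were higher (0.0887%) and 9 lower (0.0258%), or 76 and 18 with the replicate number as a block, a fit in which Esm1 was again the only member called. Of the 12 member probe sets, 11 had a positive log2 fold change, as had 56.3% of all, and the members' median was 0.22 against 0.018 over all. An unadjusted p under 0.05 was reached by 5 of the 12, all higher, against 4.03% of all probe sets in either direction and 2.84% that were higher. The 4 Z/Edn2 values lay above all 4 Control values in 3 of the 12 (Esm1, Cxcr4 and an Unc5b probe set), against 2.32% of all probe sets (3.13% in either direction), and below them in 0. The members were chosen with earlier results of these data known, and some probe sets share a gene. Such shares of the members therefore give no independent support. In these whole-retina samples, fewer cells of a type and less RNA per cell cannot be told apart.

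**Figure D1:**
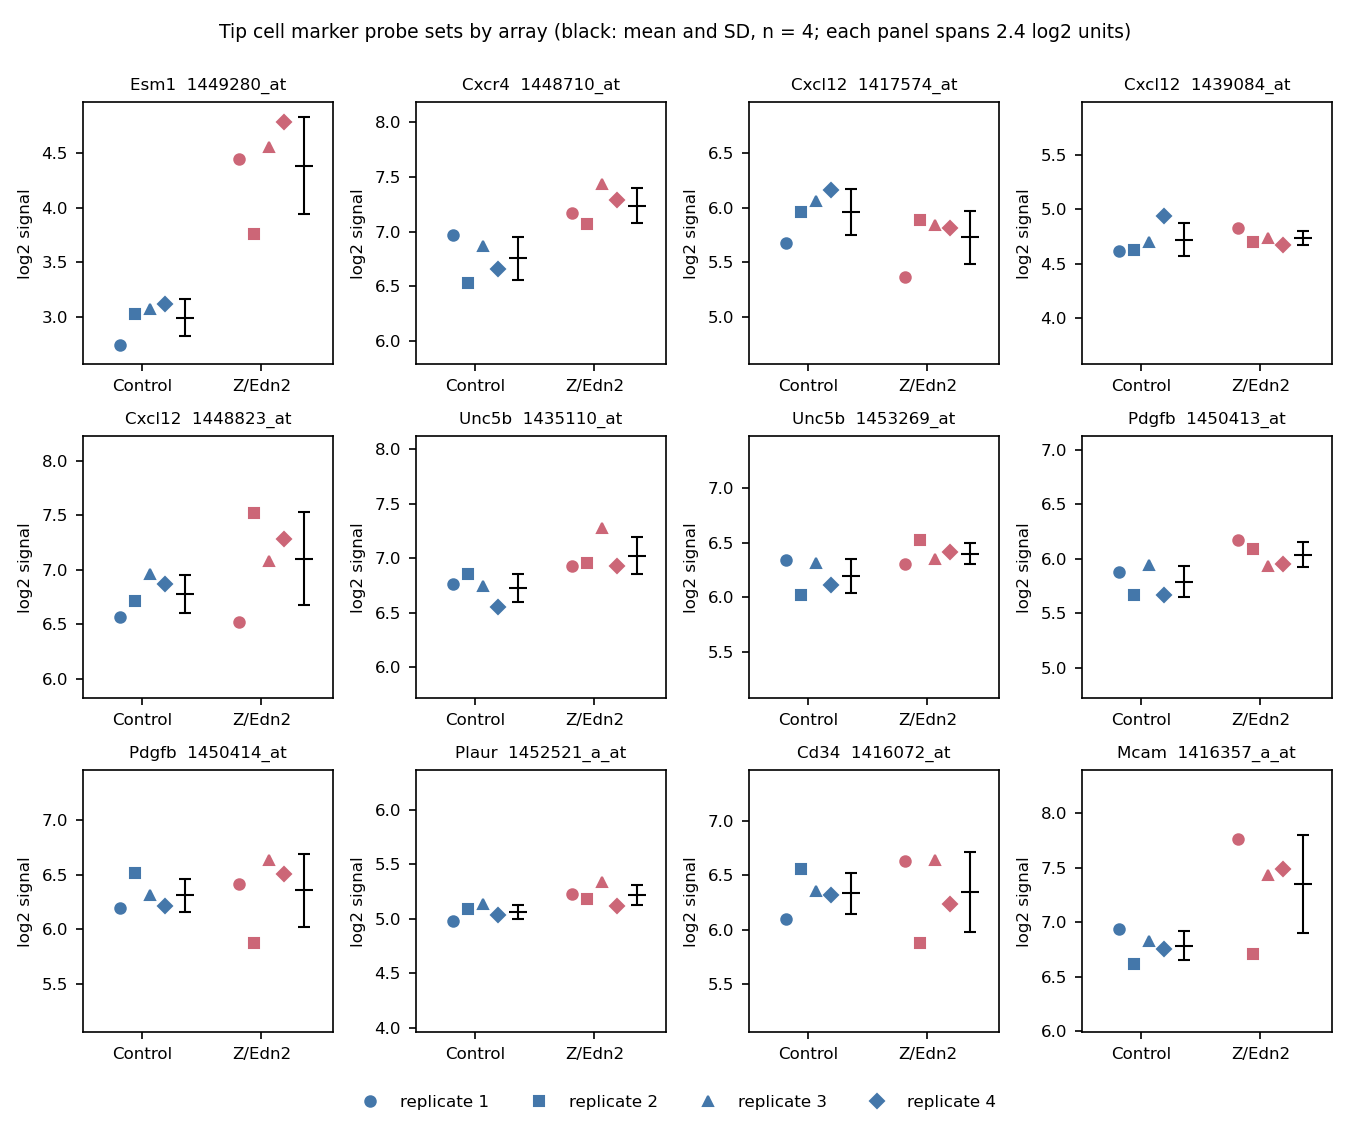
Log2 signal of each of the 12 tip cell marker probe sets in the 4 Control (blue) and 4 Z/Edn2 (red) arrays, with the mean and SD in black; symbols give the replicate number. Esm1 has the widest gap between the groups, from 3.12 in the highest Control to 3.76 in the lowest Z/Edn2 array, and Z/Edn2 2 (square) is the lowest Z/Edn2 array for Esm1, Cxcr4, Cd34, Mcam and Pdgfb 1450414_at.

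**Figure D2:**
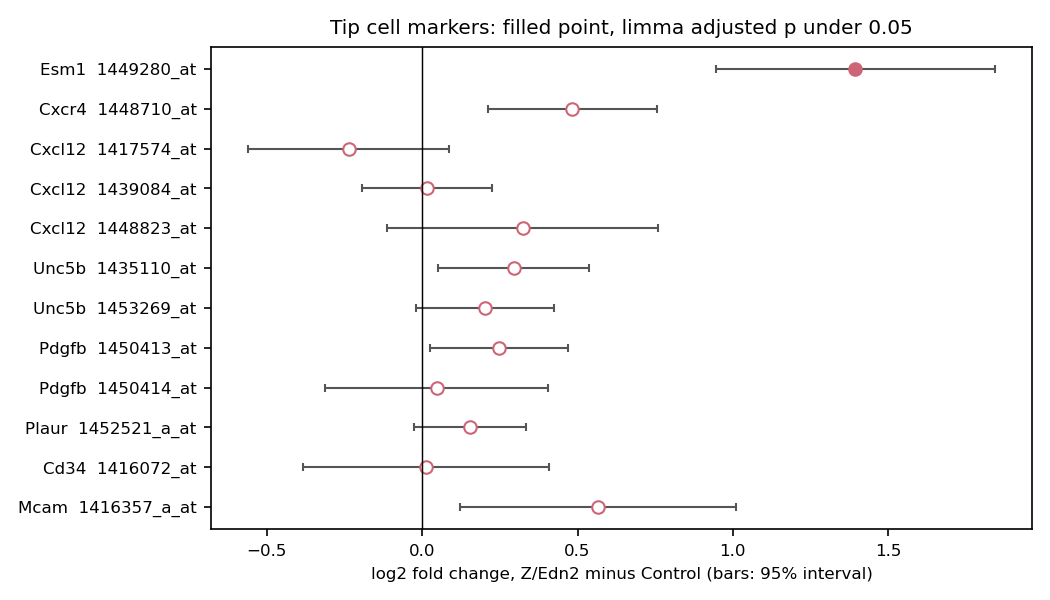
Log2 fold change of each member probe set, Z/Edn2 minus Control, with the 95% interval from limma; the filled point passed the adjusted threshold. Esm1 is at 1.39, and the 3 probe sets of Cxcl12 lie on both sides of 0.

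Among the secreted products, Esm1 (1449280_at) was at 2.74, 3.03, 3.07 and 3.12 in Control 1 to 4 and at 4.45, 3.76, 4.55 and 4.78 in Z/Edn2 1 to 4. Each Z/Edn2 array was above every Control array, with Z/Edn2 2 nearest to them. The log2 fold change was 1.39 ± 0.200 (SE; limma adjusted p = 0.0463), and it was positive in all 4 same-numbered pairs, from 0.73 in pair 2 to 1.70 in pair 1. With 1 probe set a gene the adjusted p was 0.0183, with the replicate block 0.0205, after each array's median was subtracted 0.0543, and adjusted over all probe sets but the array controls 0.0560. Omission of Control 1, 2, 3 or 4 ended the call (adjusted p = 0.142, 0.166, 0.188 and 0.171), as did that of Z/Edn2 1, 3 or 4 (0.0937, 0.195 and 0.158), whereas without Z/Edn2 2 it was 0.00484. With the 3 arrays of unusual spike-in or actin values (Control 1, Z/Edn2 1, Z/Edn2 3) left out, it was 1.20 (adjusted p = 0.376). The probe set was dim, as only 10.3% of probe sets had a lower mean. Its values lay within the range of gene means of the list of tissues other than the eye (2.58 to 6.76). That range is wide, and means of other members lay within it too, among them Plaur (5.14), Cd34 (6.34) and Pdgfb (5.91 and 6.33). The mean of Esm1, 3.69, was below the list's median of 4.33, so low levels of Esm1 were little separated from array background. In the authors' deposited table its unadjusted p was 0.00106.

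Cxcl12, the chemokine ligand of Cxcr4, gave different results with its 3 probe sets, none of which passed. With 1448823_at, Control 1 to 4 were at 6.57, 6.72, 6.96 and 6.87 and Z/Edn2 1 to 4 at 6.52, 7.52, 7.08 and 7.29. Z/Edn2 2, 3 and 4 were above every Control array, while Z/Edn2 1 was below them all. This gave a log2 fold change of 0.32 (95% interval −0.11 to 0.76; limma adjusted p = 1.00), or 0.18 without Z/Edn2 2 and 0.52 without Z/Edn2 1. With 1417574_at the values were 5.67, 5.96, 6.06 and 6.16 in Control and 5.37, 5.89, 5.84 and 5.82 in Z/Edn2, and each Z/Edn2 array was below the same-numbered Control array. Its log2 fold change was −0.24 (−0.56 to 0.087), or −0.12 without Z/Edn2 1. The third, 1439084_at, was dimmer, at 4.62 to 4.94 in Control and 4.68 to 4.83 in Z/Edn2, with a log2 fold change of 0.014 that turned negative without Control 1, Control 2 or Z/Edn2 1 (−0.020, −0.018 and −0.016).

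The difference within each array between the first and second of these probe sets separated the groups. The log2 signal of 1448823_at minus that of 1417574_at was 0.81 ± 0.096 in Control and 1.37 ± 0.22 in Z/Edn2 (mean ± SD, n = 4 each), and no Z/Edn2 array was below 1.15 or Control array above 0.90. The two-sided exact permutation p was 0.0286, the smallest that 4 against 4 arrays can give, or 0.143 when adjusted over the 5 differences between probe sets of 1 gene. This difference was singled out after its values were seen, and the share of such separations among other genes was not computed. The sources used here did not say which Cxcl12 transcripts each probe set detects. For Unc5b and Pdgfb the probe set differences overlapped between the groups.

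**Figure D3:**
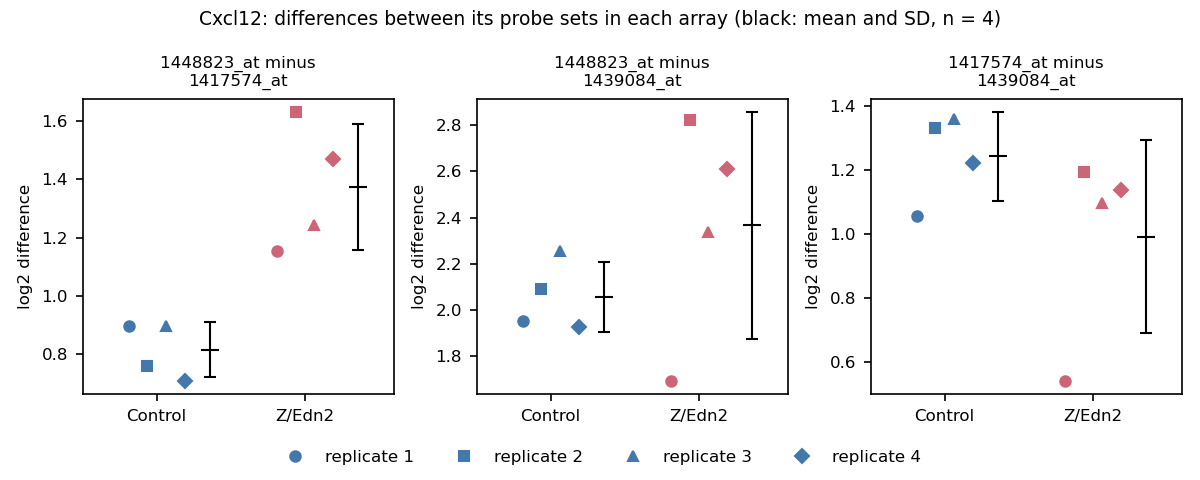
Differences in log2 signal between the 3 Cxcl12 probe sets within each array, with the mean and SD of each group in black. In the left panel the Z/Edn2 arrays (1.15 to 1.63) lie above the Control arrays (0.71 to 0.90), while in the other panels the groups overlap.

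Pdgfb, the platelet-derived growth factor chain through which sprouts recruit pericytes, had 2 probe sets. With 1450413_at, Control 1 to 4 were at 5.88, 5.66, 5.94 and 5.67 and Z/Edn2 1 to 4 at 6.18, 6.09, 5.94 and 5.95. Only Z/Edn2 3 was within the Control range, at −0.0071 relative to Control 3, and the log2 fold change was 0.25 (0.026 to 0.47; limma adjusted p = 1.00). With 1450414_at the Control values were 6.19, 6.52, 6.32 and 6.21 and the Z/Edn2 values 6.41, 5.87, 6.63 and 6.50. Z/Edn2 2 was the lowest of all 8 arrays there and the other Z/Edn2 arrays were between 6.41 and 6.63. The log2 fold change was 0.047 (−0.31 to 0.41), or 0.21 without Z/Edn2 2, and its sign turned in 7 alternatives, among them those leaving out Z/Edn2 3 (−0.045) and Z/Edn2 4 (−0.0028).

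Of the receptors, Cxcr4 (1448710_at), which binds Cxcl12, was at 6.97, 6.53, 6.87 and 6.66 in Control 1 to 4 and at 7.17, 7.07, 7.44 and 7.29 in Z/Edn2 1 to 4. All Z/Edn2 arrays lay above all Control arrays, by a gap of 0.095 between Z/Edn2 2 and Control 1. The log2 fold change was 0.48 ± 0.121 (SE; limma adjusted p = 0.594), which did not pass, nor did it with the replicate number as a block (0.162). It kept its sign in every alternative tried, from 0.41 to 0.80. In the authors' deposited table the unadjusted p of Cxcr4 was 0.00906.

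Unc5b, a receptor for netrins and for Robo4 that is found on tip cells and arterial endothelium, had 2 probe sets. With 1435110_at, Control 1 to 4 were at 6.77, 6.86, 6.74 and 6.55 and Z/Edn2 1 to 4 at 6.93, 6.95, 7.28 and 6.93. The groups did not overlap, by a gap of 0.074, and Z/Edn2 3 stood above the other Z/Edn2 arrays. The log2 fold change was 0.29 (0.051 to 0.54; limma adjusted p = 1.00), or 0.21 without Z/Edn2 3. With 1453269_at, Control arrays lay at 6.02 to 6.35 and Z/Edn2 arrays at 6.31 to 6.53, with a log2 fold change of 0.20 (−0.021 to 0.42).

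Plaur (1452521_a_at), the receptor that holds urokinase at the cell surface, was dim and varied little. Control 1 to 4 were at 4.98, 5.09, 5.14 and 5.03 and Z/Edn2 1 to 4 at 5.23, 5.18, 5.33 and 5.12. Only Z/Edn2 4 was within the Control range, just below Control 3. Between the groups the log2 fold change was 0.15 (−0.026 to 0.33; limma adjusted p = 1.00), and all 4 same-numbered pairs were higher in Z/Edn2, as they were for Esm1, Cxcr4, Unc5b 1435110_at and Mcam. That made 5 of 12 member probe sets, against 11% of all.

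The adhesion molecules Mcam and Cd34 differed from each other. Mcam (1416357_a_at), an immunoglobulin-family glycoprotein of endothelium and pericytes, was at 6.94, 6.62, 6.83 and 6.76 in Control 1 to 4 and at 7.77, 6.71, 7.44 and 7.49 in Z/Edn2 1 to 4. Z/Edn2 1, 3 and 4 were above every Control array, and Z/Edn2 2 was within the Control range. Its log2 fold change was 0.57 ± 0.198 (SE; limma adjusted p = 1.00), or 0.78 without Z/Edn2 2 (adjusted p = 0.111), and neither passed. Leaving out the 3 arrays of unusual spike-in or actin values (Control 1, Z/Edn2 1, Z/Edn2 3) gave 0.36. Cd34 (1416072_at), a sialomucin of endothelial and stromal cells, was at 6.10, 6.56, 6.36 and 6.32 in Control and at 6.63, 5.88, 6.64 and 6.24 in Z/Edn2. Z/Edn2 1 and 3 were above every Control array, Z/Edn2 2 was below them all and Z/Edn2 4 was within their range. The log2 fold change was 0.013 (−0.38 to 0.41). It was 0.17 without Z/Edn2 2, and −0.066, −0.080 and −0.085 without Control 1, Z/Edn2 1 or Z/Edn2 3. It was −0.35 without the same 3 arrays, where the unadjusted p was 0.0319 and the adjusted p 0.977.

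Z/Edn2 2 was the lowest Z/Edn2 array for 5 of the 12 probe sets, and Control 1 the lowest Control array for 7. Relative to the Control mean, it was at −0.43 for Pdgfb 1450414_at, −0.46 for Cd34 and −0.073 for Mcam, while the other 3 Z/Edn2 arrays were at 0.65 to 0.98 for Mcam. For Cxcl12 1448823_at it was the highest of all arrays (0.74). The mean of general endothelial markers was also lowest in Z/Edn2 2, although not every single marker was. The mean of the 16 pan-endothelial genes was 6.18 to 6.32 in Control and 6.06, 5.62, 6.12 and 5.86 in Z/Edn2 1 to 4. Of these 16 genes 0 rose, 2 fell over all genes, and 14 did not pass. The 2 were Tek, the angiopoietin receptor (−1.54), and Ptprb, a phosphatase that restrains it (−0.78). Log2 fold changes were negative for 12 of the 16 and positive, up to 0.16, for 4, so the markers did not move alike. An unadjusted p under 0.05 was reached by 6 of the 16, against 5.27% of all genes, with a median log2 fold change of −0.18 against 0.014 over all genes. Over all 18193 genes 0.17% were higher and 0.0495% lower. The part of the endothelial markers in the members' values was not tested.

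**Figure D4:**
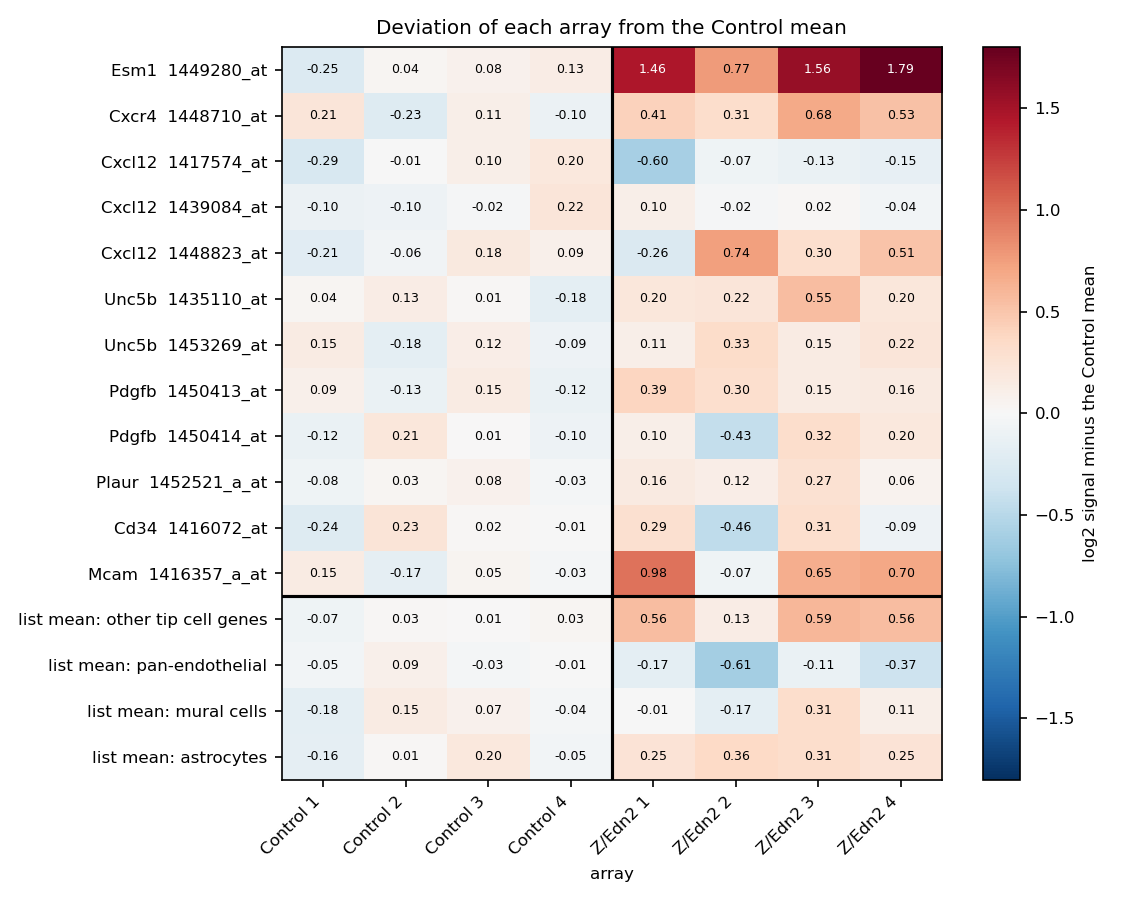
Log2 signal minus the Control mean for each member probe set (upper rows) and for the means of 4 gene lists (lower rows) in each array; red is above and blue below the Control mean. Esm1 is between 0.77 and 1.79 in the Z/Edn2 arrays, and in the Z/Edn2 2 column Cd34, Pdgfb 1450414_at and the pan-endothelial mean (−0.61) are below 0.

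The members were therefore also expressed relative to the pan-endothelial mean of each array. That scaling moved the median of all probe sets to a log2 fold change of 0.33, and changes are to be read against this shift. The fit still tested each probe set against 0 and not against the shift. An unadjusted limma p under 0.05 was then reached by 41.9% of all probe sets. After the scaling Esm1 was at 1.71 (limma adjusted p = 4.45e-05), Mcam at 0.88 (0.0206) and Cxcr4 at 0.80 (0.0312). These 3 genes passed, where 0.469% of all probe sets were higher and 0.0172% lower. Mcam and Cxcr4 did not pass without the scaling, and their calls here include the shift. Z/Edn2 values lay above all Control values for 9 of the 12 member probe sets, against 27.5% of all. Cd34 was at 0.33, the same as the median of all probe sets, and Cxcl12 1417574_at at 0.078. The scale is set by a list of which 2 genes fell, so it does not measure expression per endothelial cell.

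Mural, microglial, astrocyte and fibroblast markers were examined because such cells also hold some members' transcripts, and retinal neurons were examined as the bulk of the tissue. Of 10 mural cell genes 0 passed, and their mean was 6.33 to 6.66 in Control and 6.34 to 6.83 in Z/Edn2. Their log2 fold changes were positive for 6 and negative for 4. The smooth muscle actin-binding protein Tagln was at 0.32 on the log2 scale (adjusted p = 0.206 by limma) and Abcc9 at −0.48 (0.971). Of 10 microglial and macrophage genes 0 passed, with list means of 5.52 to 5.70 and 5.45 to 5.79. Cd68, a lysosomal protein of phagocytes, was at 0.59 (0.336) and P2ry12, a purine receptor of resting microglia, at −0.59 (0.526). Of 5 astrocyte genes 0 passed, but every Z/Edn2 list mean (7.13 to 7.25) was above every Control mean (6.72 to 7.08). Log2 fold changes were positive for 4 and negative for 1. Aldh1l1 was at 0.46 (0.333), Slc14a1, a urea transporter, at 0.68 (0.340) and S100b at −0.32 (0.974). An unadjusted p under 0.05 was reached by 3 of these 5 genes, against 5.27% of all genes, and the list's median was 0.46. Of 6 fibroblast genes 0 passed, with list means of 5.32 to 5.68 and 5.32 to 5.87. Of 7 retinal ganglion cell genes 0 passed, but all 7 had negative log2 fold changes, where 54.8% of all genes were positive. An unadjusted p under 0.05 was reached by 5 of the 7, against 5.27% of all genes. Their median was −0.34 against 0.014 over all genes. Every Z/Edn2 mean of that list (9.25 to 9.35) was below every Control mean (9.57 to 9.83). Its smallest p was that of Nefm, a neurofilament subunit, at −0.65 (adjusted p = 0.107 by limma). No background share was computed for list means that did not overlap. The part of these cells in the members' values was not tested.

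The partners of the members showed no called change. In the chemokine and PDGF list 0 of 6 genes passed. Log2 fold changes were 0.49 for Pdgfra, the receptor of retinal astrocytes (adjusted p = 0.536 by limma), −0.49 for Pdgfd, another ligand (0.685), 0.36 for Ackr3, a scavenging receptor for Cxcl12 (0.974), and 0.11 for Pdgfrb, the pericyte receptor for Pdgfb. In the netrin and UNC5 list 0 of 9 passed, with Ntn1, a netrin ligand, at 0.22 and a median of −0.035. In the plasminogen activator list 0 of the 6 measured genes passed. Plat, tissue plasminogen activator, was at 0.25 (adjusted p = 0.930) and Plau, the urokinase bound by Plaur, at 0.084. In the list of Cd34 relatives and their ligands 0 of 4 measured genes passed, and Podxl, another sialomucin, was at −0.0032.

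Of 14 other tip cell genes, 3 rose over all genes (0.17% of all genes rose), 0 fell and 11 did not pass. The 3 were Adm, the peptide adrenomedullin, with a log2 fold change of 2.26 ± 0.138 (SE; limma adjusted p = 0.000123), Kcne3, a potassium channel subunit, with 1.66 ± 0.0844 (4.03e-05), and Apln, the peptide apelin, with 0.63 ± 0.0715 (0.00570). Igfbp3, which binds insulin-like growth factors, was at 1.35 (0.176) and had no overlap between groups. The list's median was 0.18 against 0.014 over all genes, with 11 positive and 3 negative values (54.8% of all genes were positive). The Z/Edn2 values of 4 of the 14 lay above all Control values, against 2.67% of all genes (3.68% in either direction). Robo4, Kdr and Flt4, receptors of the endothelial surface, were the negative ones, at −0.19, −0.23 and −0.23, and were named after their values were seen. Adm, Kcne3 and Apln were as high in Z/Edn2 2 (8.43, 4.64 and 7.76) as in the other Z/Edn2 arrays (7.80 to 8.14, 4.55 to 4.73 and 7.74 to 7.80), whereas the matrix genes Nid1, Nid2 and Lama4 were at 6.30, 4.39 and 5.47 in Z/Edn2 2 and at 7.45 to 7.66, 5.56 to 6.01 and 6.31 to 6.83 in the others. These 3 matrix genes, too, were named after their values were seen. Several entries of this list were known from earlier results to rise, so its count gives no independent support.

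**Figure D5:**
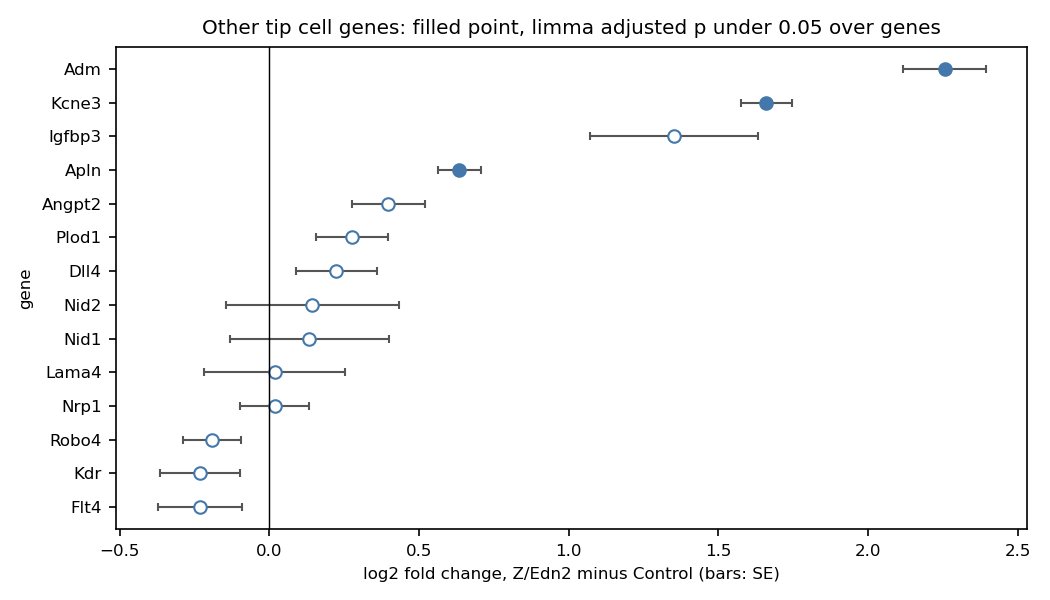
Log2 fold changes, Z/Edn2 minus Control, with SE, of the 14 other tip cell genes, each by its brightest probe set; filled points passed the adjusted threshold over all genes. Adm, Kcne3 and Apln passed, and Robo4, Kdr and Flt4 lie below 0.

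Genes with the profile nearest to a member were sought for the members whose brightest probe set spanned more than 1 log2 unit over the 8 arrays, which were Esm1, Cxcl12 and Mcam. Likeness was the root mean square difference between profiles centred on their own means. Nearest to Esm1 were A2m, a protease inhibitor (0.195), Ccnd2, a cyclin (0.284), and Apold1, an endothelial early response protein (0.296), all 3 of which passed the gene-level test. Genes near Esm1 share much of its group difference by construction, so their passing is no separate result. Nearest to Mcam were Fbln2, an extracellular matrix protein (0.0982), Tbx3, a transcription factor (0.137), and Necab3 (0.170), none of which passed. Fbln2 shared with Mcam a Z/Edn2 2 value (5.69) within the Control range of 5.55 to 6.01, a likeness for which the search selects. Nearest to Cxcl12 1448823_at were 5033403F01Rik (0.126), Cd53, a tetraspanin of leukocytes (0.129), and Tmed5 (0.134), and these did not pass either.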

How the data were processed

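The 8 arrays were mapped to groups by their titles. The authors deposited log2 signal per probe set, made with RMA per the submitters' processing notes (version not given in the sources used here), and a table comparing the groups by log2 fold change, by fold change with a sign (a score) and by an unadjusted p-value from an unnamed test. The deposited log2 fold changes equal Z/Edn2 minus Control within 4.9e-08, which fixes the direction. Values were used as deposited. No filter was applied. RMA gives no detection calls, and 3 member probe sets (Esm1, Plaur and Cxcl12 1439084_at) lay below the 40th percentile of mean signal, 5.84.

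Probe sets with 1 gene symbol in the platform annotation, which can be old, were fitted with limma 3.58.1 (lmFit, eBayes) in R 4.3.3, two-sided, adjusted over all 34945 (932 with several symbols, 9160 without one and 64 controls left out). Lists used the brightest probe set of each of 18193 genes. Exact permutation tests used SciPy 1.17.1, and promoters were searched in Python 3.11.15. The fit was tested on simulated data. The number of arrays limits the precision.

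Members, lists and motifs were chosen with earlier results of these data known. Named are the members, up to 4 genes with the smallest p of each list described by examples, and the 3 genes nearest in profile to a member whose range exceeds 1. Other genes are said in the text to have been named after their values were seen. Same-numbered arrays deviated together (correlations across probe sets of 0.80, 0.43, 0.18 and 0.31), so a blocked fit was run too, although Control 3 was closer to Z/Edn2 4 (0.41). Further lists were Mueller glia (0 of 6 passed), retinal neurons (0 of 8), lens (0 of 6), pigment epithelium (0 of 6), blood cells (0 of 4) and tissues other than the eye (0 of 15).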

Additional observations from a re-analysis of the deposited data

Results flagged for a closer look

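In 24 groups of 4 arrays (12 probe sets in each group), 2 arrays lay far from the others of their group by Dixon's test, which flags about 1 in 20 groups by chance. Cxcl12 1417574_at in Z/Edn2 1 was at 5.37, against 5.82 to 5.89 in the other Z/Edn2 arrays. Unc5b 1435110_at in Z/Edn2 3 was at 7.28, against 6.93 to 6.95 in the others.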

How the results depend on the processing

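Of 253 values of the members under 22 alternatives, 214 kept their direction and side of the threshold. Esm1, the only member called, kept its call in 8 of its 21 alternatives and lost it in 13. The rest of the 214 were values of probe sets that did not pass in the main fit either. Of the 253 values, the sign turned in 24, in Cxcl12 1439084_at, Cxcl12 1417574_at, Pdgfb 1450414_at and Cd34, none of which passed. With each array's median subtracted, Cxcl12 1439084_at was at −0.014 and Cd34 at −0.014, and Esm1 fell below the threshold at 1.37, so 0 member genes were called. With array weights Cxcl12 1439084_at was at −0.049, Pdgfb 1450414_at at −0.0051 and Cd34 at −0.13, and 49 probe sets were higher. Scaled to the pan-endothelial mean, Cxcl12 1417574_at was at 0.078, 164 probe sets were higher, and 3 member genes were called. These calls were against 0 and include the shift of all probe sets. Without Z/Edn2 3, Control 1 and Z/Edn2 1 together, Cxcl12 1439084_at was at −0.068, Pdgfb 1450414_at at −0.16, Cd34 at −0.35 and Esm1 at 1.20, with 0 members called. Without dim probe sets 4 were lower and 0 members were called, since Esm1 was left out by construction. Adjusted over all probe sets but the array controls, Esm1 at 1.39 was not called and 0 members were. With the replicate block 76 were higher and 18 lower, and no member's call changed. As 1 probe set a gene, 486 and 184 genes had groups that did not overlap, against 811 and 284 probe sets, from fewer features. Without 1 array or 1 same-numbered pair, Esm1 was at 1.26 to 1.62 and called in 2 of 12 omissions, those without Z/Edn2 2 or replicate 2. Higher probe sets then numbered 3 to 34 (under 20 without any 1 array but Z/Edn2 1), lower ones 0 to 7, called members 0 to 1. Cxcl12 1439084_at lay between −0.050 and 0.11, Pdgfb 1450414_at between −0.045 and 0.28, and Cd34 between −0.16 and 0.25. Fewer arrays also lower the power of these fits, and the causes were otherwise not tested. Dim signal limits what can be said of Esm1, Plaur and Cxcl12 1439084_at.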
